A study of Homo sapiens with 62 samples.

Results

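The genes described here are 39 interferon-stimulated genes, whose products make up much of the antiviral and signalling output of the interferon pathway. They were chosen by name, as the rows of the deposited gene tables whose symbol equals a member, and all 39 were found, each with 1 row, among 55040 rows. The libraries came from GM12878, a human B-lymphoblastoid cell line immortalised with Epstein-Barr virus. The 2 sets compared were 10 numbered splits, whose titles count them from 1 to 10, and 10 unnumbered splits. Titles of the unnumbered splits carry a library number (232, 233 and 246 to 253) and no split number. The titles of 9 unnumbered splits, all but 247, mark the record as superseded by a later submission, whose updated description was not used here, and this touches every comparison of the sets. Each split is 1 of 10 parts of a pool of 10 picked cells, carried through SMARTer cDNA amplification and Nextera tagging in the way of a single cell. Both sets share the cell line, the poly(A) RNA, the kits and the sequencer, and the labels name no interferon or other treatment in either. The labels do not say that each set came from 1 pool, so p-values measure the spread between these splits, which may be technical. The other 42 of the series' 62 samples were not analysed here.

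Type I interferons bind a receptor whose kinases activate transcription factors, among them STAT2, which acts with IRF9 at a DNA element, the interferon-stimulated response element (ISRE), near the target genes. A further element, the gamma-activated site (GAS), serves mainly in the response to interferon gamma. The products act on RNA and protein of viruses, on membranes, and on the pathway itself, and Epstein-Barr virus-transformed B cells are known to express many of them without added interferon.

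Promoter letters are shown first, as a search for letters of these 2 elements. They are printed for 6 of the members that were higher in the numbered splits. Of the 39 members, 30 matched an entry in the RefSeq promoter table (GRCh38.p14, 250 bases before to 50 after the start). The other 9 were USP18, IFIT2, IFITM2, MX2, GBP2, OAS2, OASL, IRF7 and TRIM22. ISRE letters, which are GAAA, any 2 bases and GAAA again, searched on both strands, were in a promoter of 20 of the 30 members (66.7%) and of 4.38% of 27305 genes. GAS letters, written TTCNNNGAA, were in 8 of the 30 (26.7%) and in 9.38% of genes. ISRE letters were in 5 of the 6 members printed and in 15 of the 24 others with an entry. The lines give 190 bases from 180 before the start to 10 after it, 5′ to 3′ on the gene's strand, with ISRE and GAS letters in capitals.
ISG15, chr1:1013317-1013506, plus strand: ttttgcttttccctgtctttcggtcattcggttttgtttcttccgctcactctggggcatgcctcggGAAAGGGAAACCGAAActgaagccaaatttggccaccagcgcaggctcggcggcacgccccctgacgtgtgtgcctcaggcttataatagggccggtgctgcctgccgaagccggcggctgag
IFITM1, chr11:313860-314049, plus strand: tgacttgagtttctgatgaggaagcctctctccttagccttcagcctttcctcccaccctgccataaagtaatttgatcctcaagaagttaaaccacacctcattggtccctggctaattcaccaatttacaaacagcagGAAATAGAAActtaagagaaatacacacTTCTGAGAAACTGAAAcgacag
IFITM3, chr11:320851-321040, minus strand: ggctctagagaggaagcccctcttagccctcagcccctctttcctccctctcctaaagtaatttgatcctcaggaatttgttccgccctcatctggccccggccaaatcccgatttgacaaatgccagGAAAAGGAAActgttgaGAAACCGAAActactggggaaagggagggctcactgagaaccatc
IFI44, chr1:78649609-78649798, plus strand: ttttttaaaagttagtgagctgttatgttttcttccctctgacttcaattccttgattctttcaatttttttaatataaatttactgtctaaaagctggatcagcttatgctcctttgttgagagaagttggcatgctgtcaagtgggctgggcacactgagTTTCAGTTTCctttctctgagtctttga
IFI44L, chr1:78620268-78620457, plus strand: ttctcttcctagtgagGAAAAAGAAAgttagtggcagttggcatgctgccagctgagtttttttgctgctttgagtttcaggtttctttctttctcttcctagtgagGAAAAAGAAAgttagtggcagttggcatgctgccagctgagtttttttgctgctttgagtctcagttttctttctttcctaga
IRF1, chr5:132490764-132490953, minus strand: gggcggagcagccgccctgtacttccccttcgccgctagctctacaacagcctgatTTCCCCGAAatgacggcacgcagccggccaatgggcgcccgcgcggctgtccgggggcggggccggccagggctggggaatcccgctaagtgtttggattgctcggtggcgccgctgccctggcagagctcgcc
In ISG15 2 ISRE matches overlap each other, at -113 and -107 from the start. IFITM1 holds an ISRE at -40 and another at -6, which overlaps a GAS match at -12. IFITM3 holds ISRE letters at -52 and -35, and IFI44 has its match on the other strand at -18. IFI44L holds the same 10 letters at -164 and at -73. IRF1 holds no ISRE letters in the window and has GAS letters at -124. A match describes letters in a window and not a bound site.

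Levels are FPKM, fragments per kilobase of transcript and mapped megafragment (M), as the authors deposited them. A gene was counted as detected at 1 FPKM or more. Depth, read from the confidence bounds in the files, was 11.8 to 20.6 M fragments in the numbered splits. It was 23.3 to 38.7 M in the unnumbered splits, apart from 7.79 M in split 252 and 0.128 M in split 247. A count of 3 fragments on 1 kb corresponds to 0.0775 to 0.385 FPKM in 19 libraries and to 23.5 FPKM in split 247, so low levels there could not be resolved. This floor covers counting error only, and neither it nor the bounds measure the spread between splits. Some genes used by every cell were also listed at 0 in some splits (4 of 12 core genes checked, for example TBP in 3 numbered and 5 unnumbered splits), so a gene at 0 is described as listed at 0. In such pools fewer cells with a transcript and less transcript per cell cannot be told apart.

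**Figure D1:**
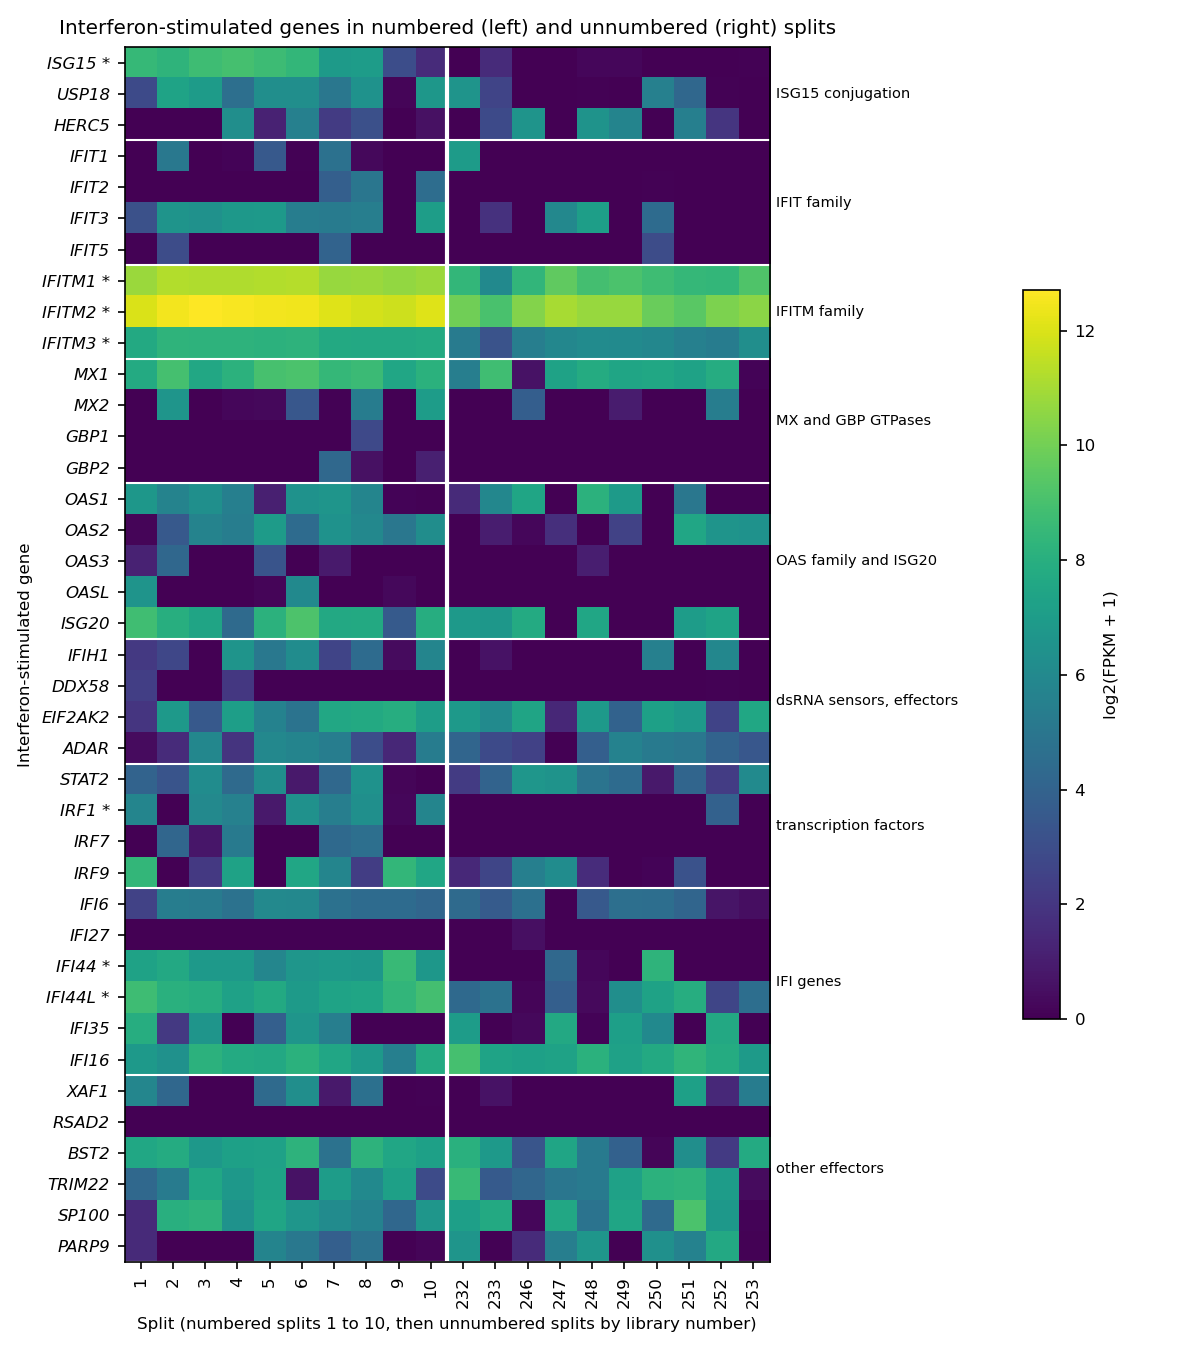
Level of the 39 interferon-stimulated genes as log2(FPKM + 1) in each of 10 numbered splits (left) and 10 unnumbered splits (right), ordered by the role of the gene product. Asterisks mark the 7 genes past an adjusted p of 0.05. The IFITM2 and IFITM1 rows have the highest medians in both sets. IFITM2 lay between 3408 and 6690 FPKM in the numbered splits and between 534 and 2106 FPKM in the unnumbered splits.

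More of the genes were detected in the numbered splits. The numbered splits detected 26 ± 3.97 of the 39 genes and the unnumbered splits 18.1 ± 3.11 (SD, n = 10 each). The lowest were 17 in numbered split 9 and 11 in unnumbered split 253. At least 8 of 10 splits detected 21 of the genes in the numbered set (53.8%, beside 25.0% of all rows tested) and 12 in the unnumbered set (30.8%, beside 19.8%). The shares of members are over all 39, of which 34 were among the rows tested. The numbered splits detected 33.9 to 65.1% of all tested rows and the unnumbered splits 26.7 to 43.3%, and the part of this in the count of members was not tested. Summed over the 39 genes, the level was 0.583 to 0.784% of all FPKM in the numbered splits and 0.176 to 0.355% in the unnumbered splits. Without the 3 IFITM genes the sum was 1945 to 3380 FPKM in the numbered splits and 756 to 2439 FPKM in the unnumbered splits, ranges that overlap.

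Which of these genes differ in level between the sets was tested with limma on log2(FPKM + 1) over 10506 rows with a mean of 1 FPKM or more, with Benjamini-Hochberg adjustment. Differences are numbered minus unnumbered on that scale, which understates the change of low genes. In the numbered splits 7 of the 34 members tested were higher (ISG15, IFITM1, IFITM2, IFITM3, IRF1, IFI44 and IFI44L), beside 3.93% of all rows. None was lower, beside 1.38% of all rows, and 27 did not pass. Of the 34, 17 had an unadjusted limma p under 0.05, beside 16.3% of all rows. The exact rank-sum test, an alternative, called the same 7 and none lower, beside 6.72% of all rows higher and 2.35% lower. The median difference was 1.51 over the 34 genes and 0.35 over all rows, of which 59.9% were positive. The 5 members below the filter were GBP1, GBP2, DDX58, IFI27 and RSAD2. Set and run of laboratory experiment numbers do not cross between the sets, so the set and its handling cannot be told apart.

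Of the 3 genes of conjugation to ISG15, ISG15 itself was higher. ISG15, the ubiquitin-like protein that is attached to other proteins, was at 1.99, 325 and 495 FPKM (lowest, median and highest of 10 splits) in the numbered splits, against 0, 0 and 1.92 FPKM in the unnumbered splits. Every numbered split was above every unnumbered one, though the lowest numbered split, 10, stood just above unnumbered split 233. Within the numbered set splits 1 to 6 were at 309 to 495 FPKM, splits 7 and 8 at 122 and 130 FPKM, and splits 9 and 10 at 7.06 and 1.99 FPKM. The difference was 6.81 (SE 0.90, limma adjusted p = 8.93e-06). USP18, the protease that removes ISG15 and dampens receptor signalling, had 0.133, 76.5 and 166 FPKM in the numbered splits, against 0, 0.0560 and 94.0 FPKM in the unnumbered splits. The sets overlapped, and the difference of 3.38 (SE 1.08) did not pass (adjusted p = 0.0714), although it did without numbered split 9 (0.0161), unnumbered split 232 (0.0242) or unnumbered split 250 (0.0400). HERC5, the main ligase for ISG15, had 0, 0.897 and 77.4 FPKM in the numbered splits, against 0, 4.53 and 94.9 FPKM in the unnumbered splits. It was detected in 5 numbered and 6 unnumbered splits and had a difference of -1.02 (SE 1.15, adjusted p = 0.636).

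The IFITM family, transmembrane proteins that hinder virus entry, held the most abundant members in both sets. IFITM2 was at 3408, 4938 and 6690 FPKM in the numbered splits, against 534, 1257 and 2106 FPKM in the unnumbered splits. IFITM1 was at 1605, 2044 and 2511 FPKM in the numbered splits, against 63.6, 386 and 767 FPKM in the unnumbered splits. IFITM3 was at 202, 253 and 307 FPKM in the numbered splits, against 8.39, 51.0 and 75.7 FPKM in the unnumbered splits. In each of the 3 the sets did not overlap, as held for ISG15 and for 1.65% of all rows in this direction. The differences were 2.06 for IFITM2 (SE 0.21, adjusted p = 1.47e-07), 2.47 for IFITM1 (SE 0.31, adjusted p = 3.34e-06) and 2.46 for IFITM3 (SE 0.44, adjusted p = 0.000491). In the ratio of means, IFITM1 was 4.87 times, IFITM2 3.95 times and IFITM3 5.03 times as high in the numbered splits.

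**Figure D2:**
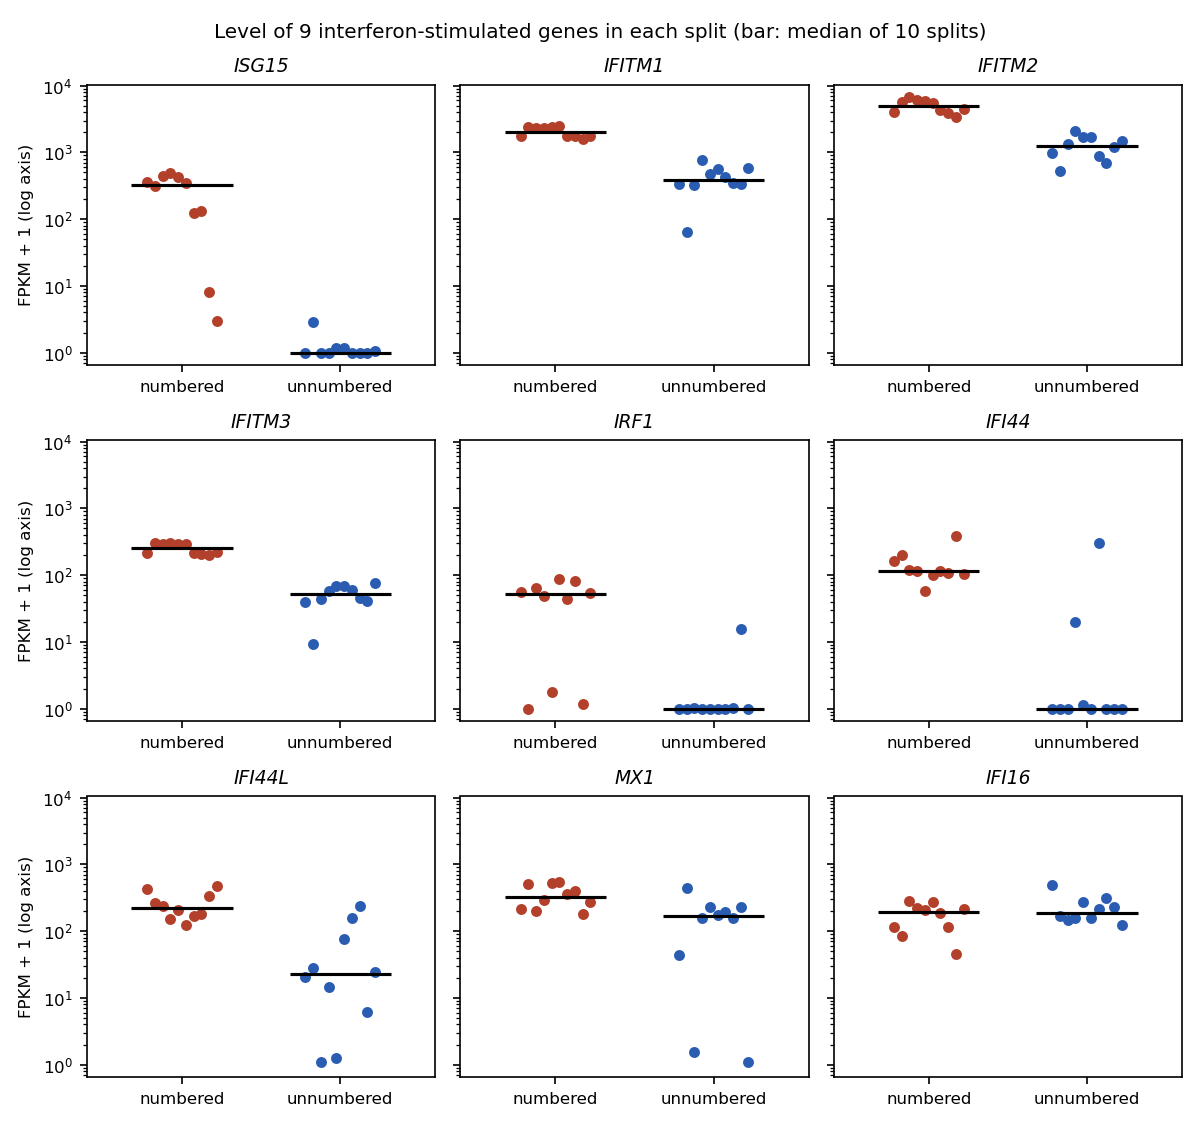
FPKM + 1 on a log axis for the 7 genes that were higher in the numbered splits and for MX1 and IFI16, one point per split, numbered splits left and unnumbered splits right, with the median as a bar. ISG15 and the 3 IFITM genes do not overlap between the sets, while IFI44 has an unnumbered split at 304 FPKM and the ranges of IFI16 overlap.

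The 3 IFITM genes share stretches of near-identical sequence, so their levels depend on how fragments were shared out between them. In the coordinates of the deposited files, for which the sources name no build, the IFITM2 row at chr11:307631-315272 contains the IFITM1 row at chr11:313506-315272. Coding sequences of GENCODE 29 were 378 bases long for IFITM1, 399 for IFITM2 and 402 for IFITM3. Over aligned bases only, identity was 94.0% between IFITM2 and IFITM3 (399 bases aligned). It was 87.0% between IFITM1 and IFITM3 and 85.0% between IFITM1 and IFITM2 (339 bases aligned in each). Bases that did not align are left out of these shares. The stretch below was picked as the coding window of 120 bases with the highest identity over the 3 transcripts. They differ in it at a single position, in capitals, so little separates them for a short read in this window. Over all aligned bases they differ more, as the identities above show. Letters are from GRCh38, 5′ to 3′, chromosome 11, joined across an intron.
IFITM1, coding bases 154 to 273: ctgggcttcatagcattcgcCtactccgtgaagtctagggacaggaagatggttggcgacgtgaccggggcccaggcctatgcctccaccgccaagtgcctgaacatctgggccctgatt
IFITM2, coding bases 214 to 333: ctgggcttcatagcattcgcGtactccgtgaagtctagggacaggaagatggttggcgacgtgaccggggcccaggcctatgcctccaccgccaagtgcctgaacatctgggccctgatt
IFITM3, coding bases 217 to 336: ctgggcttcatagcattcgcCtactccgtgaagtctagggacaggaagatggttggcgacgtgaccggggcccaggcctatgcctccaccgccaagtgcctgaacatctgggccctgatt
The number of fragments implied by the bounds was higher for IFITM1 (median 15799) than for IFITM2 (median 10618) in the numbered splits. The level per length was higher for IFITM2. Where fragments are shared out between genes, the implied number need not be a count. The 3 levels are therefore given as uncertain relative to each other.

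Ratios among the 3 genes were steady in the numbered set. IFITM3 was at 12.3 ± 0.452% of IFITM1 in the numbered splits and at 12.3 ± 1.93% in the unnumbered splits (SD, n = 10 each). Split by split this share was 11.5 to 12.8% over the numbered splits and 7.45 to 14.4% over the unnumbered ones. IFITM2 was 2.41 ± 0.236 times IFITM1 in the numbered splits and 3.49 ± 1.85 times in the unnumbered splits. Unnumbered split 233, lowest of its set for all 3 genes, had the highest ratio at 8.40. The lowest IFITM3 share was in split 247, where a level of 57.1 FPKM stood on about 1.23 implied fragments.

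**Figure D3:**
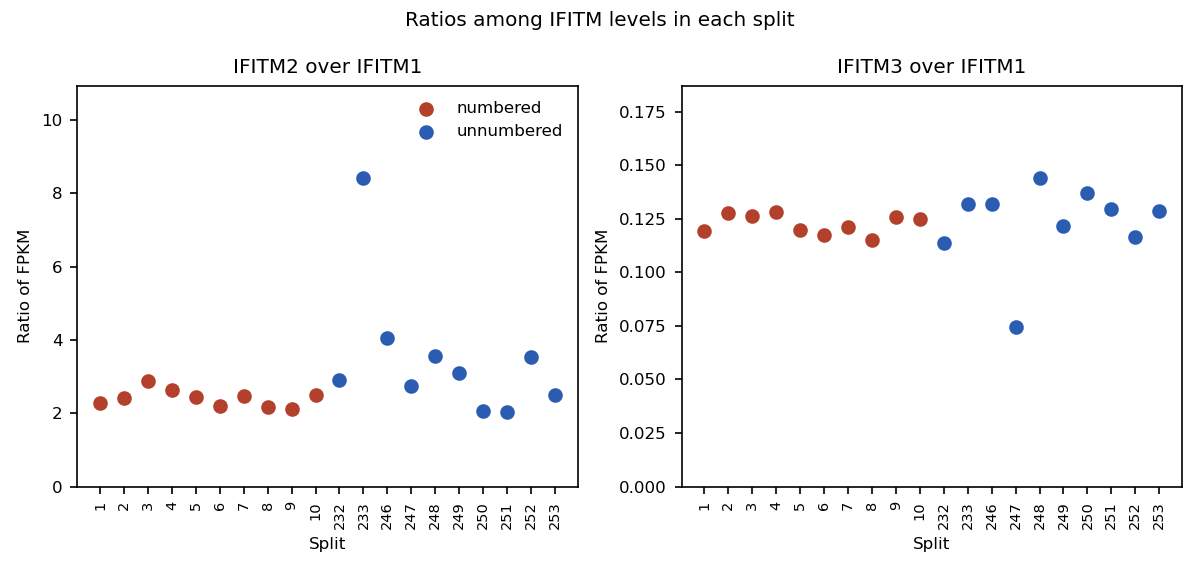
Ratio of FPKM of IFITM2 over IFITM1 (left) and of IFITM3 over IFITM1 (right) in each split, numbered splits first. The numbered splits lie between 2.12 and 2.88 for IFITM2 over IFITM1, and unnumbered split 233 stands at 8.40.

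The IFIT family, which bind foreign RNA and restrain its translation, was patchy, and none of the 4 tested passed. IFIT3 had 1.21e-07, 63.5 and 136 FPKM in the numbered splits, against 0, 0.00644 and 139 FPKM in the unnumbered splits. It was detected in 9 numbered and 4 unnumbered splits, the sets overlapped, and the difference was 3.36 (SE 1.11, adjusted p = 0.0827). It passed without numbered split 9 (adjusted p = 0.0195), unnumbered split 247 (0.0421) or unnumbered split 248 (0.0244). IFIT1 had 0, 0.0658 and 32.5 FPKM in the numbered splits, against 0, 0 and 125 FPKM in the unnumbered splits, where split 232 alone was above 1 FPKM. IFIT2 was detected in 3 numbered and no unnumbered splits, and IFIT5 in 2 numbered splits and 1 unnumbered split. The row of LIPA overlaps all 4 IFIT rows in the files, and its median was 11.3 FPKM in the numbered splits and 0.00136 FPKM in the unnumbered splits. Its part in the IFIT levels was not tested.

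Among the GTPases, MX1, a dynamin-like restriction factor, was abundant in most splits and did not pass. It had 181, 321 and 546 FPKM in the numbered splits, against 0.0885, 166 and 445 FPKM in the unnumbered splits. Unnumbered splits 246 and 253 were under 1 FPKM and splits 233, 248, 250 and 252 were above the lowest numbered split, so the sets overlapped, with a difference of 2.31 (SE 0.91, adjusted p = 0.174). MX2 had 0, 0.195 and 130 FPKM in the numbered splits, against 0, 0 and 40.5 FPKM in the unnumbered splits. GBP1 was above 0 in 1 numbered split and no other, and GBP2 was detected in 2 numbered and no unnumbered splits.

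The OAS family, in which OAS1, OAS2 and OAS3 make the oligoadenylate that switches on RNase L, was grouped with the exonuclease ISG20. The group gave no gene past the threshold, with 5 of 5 differences positive. ISG20 had 11.3, 226 and 562 FPKM in the numbered splits, against 0, 110 and 219 FPKM in the unnumbered splits. It was detected in 10 numbered and 6 unnumbered splits, with a difference of 2.96 (SE 1.20, adjusted p = 0.189). OAS1 had 0.0674, 51.9 and 103 FPKM in the numbered splits, against 0, 16.9 and 288 FPKM in the unnumbered splits. OAS2 had 0.125, 45.5 and 124 FPKM in the numbered splits, against 0, 1.66 and 180 FPKM in the unnumbered splits. Both overlapped between the sets. OAS3 was detected in 3 numbered splits and 1 unnumbered split, and OASL in 2 numbered and no unnumbered splits.

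The sensors and effectors of viral RNA gave no gene past the threshold, and their median difference of 0.34 was close to that of all rows. IFIH1, the sensor MDA5, had 0.0211, 13.3 and 93.2 FPKM in the numbered splits, against 0, 0.00487 and 57.2 FPKM in the unnumbered splits. It was detected in 8 numbered and 2 unnumbered splits, with a difference of 2.38 (SE 1.05, adjusted p = 0.246). EIF2AK2, the kinase PKR that halts translation, was detected in all 20 splits at 2.88, 122 and 238 FPKM in the numbered splits, against 1.69, 114 and 188 FPKM in the unnumbered splits. Its difference was 0.34 (SE 0.91, adjusted p = 0.862) and its sign turned when the trend on transcript length was removed. ADAR, which edits adenosine in RNA, had 0.274, 23.4 and 60.8 FPKM in the numbered splits, against 0, 14.3 and 49.1 FPKM in the unnumbered splits, and the difference was -0.02 (SE 0.93). DDX58, the sensor RIG-I, was detected in 2 numbered and no unnumbered splits.

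Of the transcription factors of the pathway, IRF1 was higher. IRF1, which is induced by interferon gamma and in turn activates target genes, had 0, 50.6 and 85.6 FPKM in the numbered splits, against 0, 0 and 14.5 FPKM in the unnumbered splits. In the numbered set 7 splits were at 42.4 FPKM or more and splits 2, 5 and 9 were under 1 FPKM, while in the unnumbered set only split 252 was above 1 FPKM. The difference was 3.84 (SE 0.97, adjusted p = 0.0153). Without numbered splits 5 to 8 it was 3.50 and no longer passed (adjusted p = 0.0908). IRF9, which binds DNA together with STAT2, had 0, 107 and 342 FPKM in the numbered splits, against 0, 1.90 and 72.2 FPKM in the unnumbered splits, with a difference of 2.87 (SE 1.25, adjusted p = 0.236). STAT2, its partner, had 0, 16.9 and 89.4 FPKM in the numbered splits, against 0.809, 18.8 and 103 FPKM in the unnumbered splits, with a difference of -0.61 (SE 1.01, adjusted p = 0.762). IRF7, which drives interferon alpha genes, was detected in 4 numbered splits at up to 34.9 FPKM and was listed at 0 in all 10 unnumbered splits.

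Among the genes named for their induction by interferon, the neighbours IFI44 and IFI44L on chromosome 1 were higher. IFI44 had 56.7, 114 and 380 FPKM in the numbered splits, against 0, 0 and 304 FPKM in the unnumbered splits. It was detected in all numbered splits, and in the unnumbered set only splits 247 and 250 were above 1 FPKM, so the sets overlapped through split 250. The difference was 5.74 (SE 0.95, adjusted p = 0.000181). IFI44L had 122, 225 and 477 FPKM in the numbered splits, against 0.109, 21.5 and 237 FPKM in the unnumbered splits, where splits 250 and 251 reached into the numbered range. The difference was 3.66 (SE 0.84, adjusted p = 0.00717). IFI6, a mitochondrial inhibitor of apoptosis, had 4.76, 26.5 and 63.0 FPKM in the numbered splits, against 0, 14.2 and 25.2 FPKM in the unnumbered splits, with a difference of 1.69 (SE 0.80, adjusted p = 0.289). IFI16, a DNA sensor, was detected in every split, at 44.2, 195 and 285 FPKM in the numbered splits, against 121, 188 and 492 FPKM in the unnumbered splits. Its difference was -0.44 (SE 0.41, adjusted p = 0.605). IFI35, a partner of the adaptor NMI, had 0, 8.28 and 238 FPKM in the numbered splits, against 0, 32.9 and 206 FPKM in the unnumbered splits. It was detected in 6 numbered and 5 unnumbered splits, and IFI27 was listed at 0 in 19 splits.

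The other effectors gave no gene past the threshold. BST2, or tetherin, which holds budding virions at the cell surface, had 26.4, 170 and 296 FPKM in the numbered splits, against 0.115, 56.4 and 270 FPKM in the unnumbered splits. The difference was 2.13 (SE 0.87, adjusted p = 0.192). TRIM22, a ubiquitin ligase that restricts viral transcription, had 0.547, 85.9 and 189 FPKM in the numbered splits, against 0.289, 83.5 and 379 FPKM in the unnumbered splits. SP100, a component of nuclear bodies, had 1.85, 94.1 and 297 FPKM in the numbered splits, against 0.0787, 126 and 549 FPKM in the unnumbered splits. Both overlapped widely, with differences of -0.27 for TRIM22 (SE 1.04) and 0.57 for SP100 (SE 1.10). XAF1, which promotes apoptosis, was detected in 5 numbered splits at up to 77.5 FPKM and in 3 unnumbered splits at up to 149 FPKM. PARP9 was detected in 5 numbered splits at up to 51.3 FPKM and in 7 unnumbered splits at up to 200 FPKM, with a difference of -1.90 (SE 1.21, adjusted p = 0.460). RSAD2, or viperin, was listed at 0 in all 20 splits. Several members overlap a row whose median was lower in the numbered splits. TRIM5, which overlaps TRIM22, had a median of 4.73 FPKM in the numbered splits and 49.4 FPKM in the unnumbered splits. DTX3L, which overlaps PARP9, had 1.08 FPKM in the numbered splits and 7.11 FPKM in the unnumbered splits, and CCDC75, which overlaps EIF2AK2, had 1.24 FPKM in the numbered splits and 15.1 FPKM in the unnumbered splits. Their part in the members' levels was not tested.

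**Figure D4:**
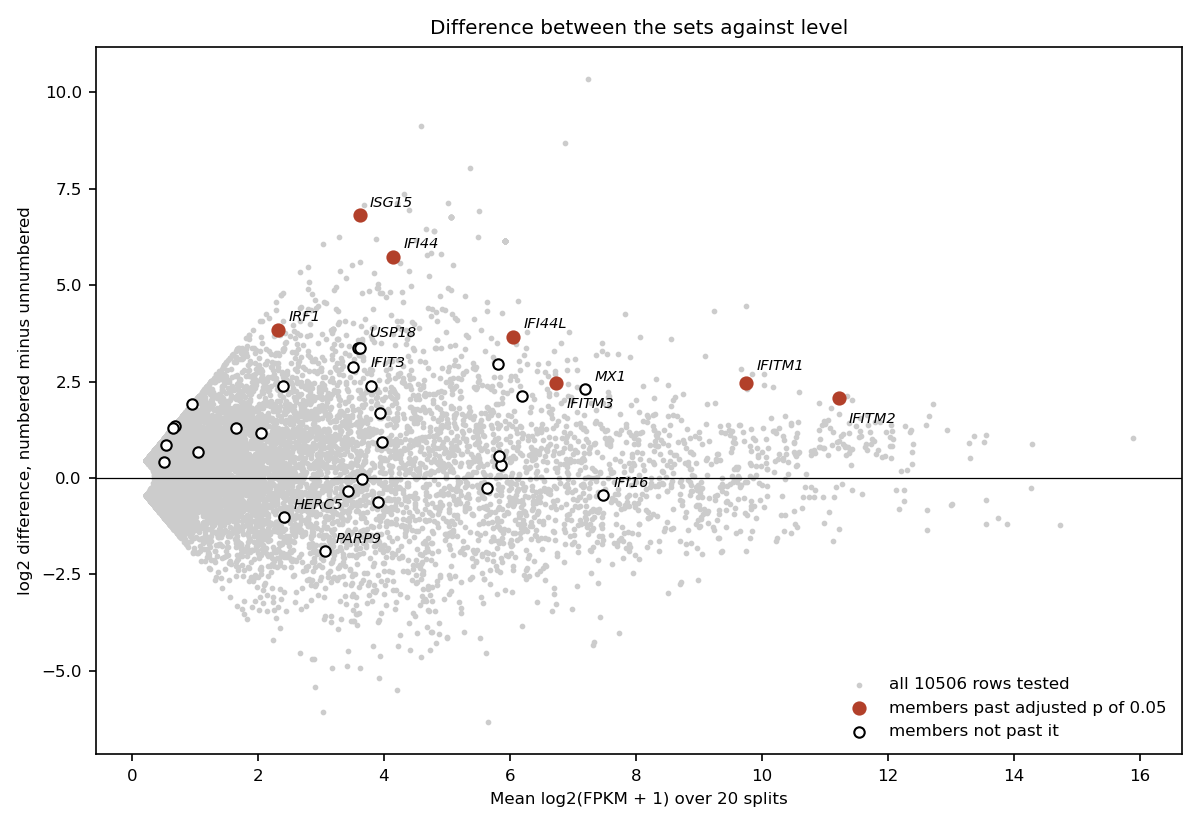
Difference between the sets (numbered minus unnumbered, log2 scale) against the mean log2(FPKM + 1) over 20 splits, for all 10506 rows tested (grey), the 7 genes past an adjusted p of 0.05 (red) and the other 27 members tested (open). The 7 called genes lie between 2.06 and 6.81, and 7 of the open points lie below 0.

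Other genes of the pathway were taken from lists by role. Among the ligands only IFNW1 was tested of 21, from a single split at 44.5 FPKM, and 19 were listed at 0 in all 20 splits. None of 7 receptor and kinase genes passed in limma, beside 3.93% of all rows higher and 1.38% lower. None passed in the rank-sum test, beside 6.72% of all rows higher and 2.35% lower. An unadjusted limma p under 0.05 was found for 2 of the 7, beside 16.3% of all rows. They were IL10RB at 3.26 (SE 1.01) and TYK2 at 2.98 (SE 1.08). The most abundant receptor genes were IFNAR1, a chain of the type I receptor, with a median of 89.8 FPKM in the numbered splits and 124 FPKM in the unnumbered splits, and IFNGR1, a chain of the type II receptor, with 105 FPKM in the numbered splits and 56.6 FPKM in the unnumbered splits. Neither passed the test, with limma adjusted p = 0.943 for IFNAR1 and 0.605 for IFNGR1. Of 13 genes of interferon induction 1, IRF4, was lower and none was higher, beside 1.38% of all rows lower and 3.93% higher. IRF4, a B cell and plasma cell factor, had 11.3, 50.4 and 200 FPKM in the numbered splits, against 101, 202 and 415 FPKM in the unnumbered splits. The difference was -1.94 (SE 0.50, adjusted p = 0.0193). IRF2, the other most abundant gene of that list, had a difference of -0.44 (SE 1.20). None of 7 negative regulators passed in limma, and 1 had an unadjusted p under 0.05, beside 16.3% of all rows. The rank-sum test called PTPN1 (adjusted p = 0.0357), beside 6.72% of all rows higher and 2.35% lower. The most abundant negative regulators were PTPN6, with a median of 194 FPKM in the numbered splits and 147 FPKM in the unnumbered splits, and PIAS1, with 57.3 FPKM in the numbered splits and 32.5 FPKM in the unnumbered splits.

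Of 39 other interferon-induced genes tested, 6 were higher and 1 was lower, beside 3.93% of all rows higher and 1.38% lower. The exact rank-sum test also called SAMD9L (adjusted p = 0.0446) and TDRD7 (adjusted p = 0.0265) higher, beside 6.72% of all rows. Neither passed in limma (adjusted p = 0.175 for SAMD9L and 0.464 for TDRD7). The median of TDRD7 was 0.210 FPKM in splits 5 to 8 and 0.354 FPKM in the other 6 numbered splits. Both medians are under the 1 FPKM counted as detected. IFI30, a lysosomal reductase used in antigen processing, had 422, 1002 and 1471 FPKM in the numbered splits, against 123, 360 and 750 FPKM in the unnumbered splits, with a difference of 1.403 (SE 0.31, adjusted p = 0.00509). It no longer passed with the trend on transcript length removed (adjusted p = 0.149). PLSCR1, a scramblase of membrane lipids, had 4.80, 149 and 424 FPKM in the numbered splits, against 0, 0 and 143 FPKM in the unnumbered splits. The difference was 4.83 (SE 1.08, adjusted p = 0.00556). LGALS9 (a galectin), LY6E (a membrane-anchored protein that affects virus entry), TNFSF13B (the B cell survival factor BAFF) and EPSTI1 rose by 4.46, 4.22, 3.33 and 2.995, with adjusted p from 0.00749 to 0.0425. LY6E did not pass without numbered splits 5 to 8 (adjusted p = 0.172), and EPSTI1 lost its call in 23 of 31 alternatives. UBE2L6, the conjugating enzyme for ISG15, had a median of 336 FPKM in the numbered splits and 181 FPKM in the unnumbered splits and did not pass (1.24, SE 0.80). CXCL10, an interferon-induced chemokine, was listed at 0 in all 10 numbered splits, against 0, 170 and 972 FPKM in the unnumbered splits, where 9 of 10 splits had 2.45 FPKM or more (adjusted p = 0.000435). Its RefSeq promoter holds ISRE letters at -221.

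Marker genes were set beside these results. The 8 B cell markers summed to 3903 to 7758 FPKM in the numbered splits and 1557 to 3409 FPKM in the unnumbered splits, and MS4A1, CD79A and CD74 rose by 1.64, 4.69 and 1.20. The 6 monocyte markers summed to 1.46 to 53.8 FPKM in the numbered splits and 0.902 to 1.65 FPKM in the unnumbered splits, most of it CSF1R, with CD14, FCGR1A and S100A8 at 0 throughout and LYZ at or near 0. Of these 6 markers, 4 were below 1 FPKM in all 20 splits. CSF1R, a receptor of macrophage growth factors, had 1.46, 2.42 and 53.8 FPKM in the numbered splits, against 0.902, 1.299 and 1.65 FPKM in the unnumbered splits. It did not pass in limma (adjusted p = 0.349) and was called higher by the exact rank-sum test (adjusted p = 0.00237). The 4 plasmacytoid dendritic cell markers summed to 0.0348 to 234 FPKM in the numbered splits, most of it IL3RA, and to 0.00122 to 36.1 FPKM in the unnumbered splits, with SCT at 0. The 5 T cell markers summed to 3.27 to 239 FPKM in the numbered splits and 10.3 to 590 FPKM in the unnumbered splits, most of it TRAC, with CD3D at 0. Fibroblast markers reached 1.19 FPKM in the numbered splits and 2.61 FPKM in the unnumbered splits. The part of these markers in the differences was not tested.

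Within the numbered set, splits 5 to 8 carry experiment numbers apart from those of the other 6, and the labels do not say whether they were handled apart. With limma no member passed, beside 0.00952% of all rows, and 3 had an unadjusted p under 0.05, beside 5.35% of all rows. The exact rank-sum test called no row at all in this small comparison (smallest adjusted p over all rows 0.676), so it cannot tell the members apart from others. PARP9, a partner of the ubiquitin ligase DTX3L that is described because of this value, was at 51.3, 33.6, 13.3 and 26.4 FPKM in splits 5 to 8, against 0, 0.00105 and 1.85 FPKM (lowest, median and highest) in the other 6 splits. The values did not overlap, as held for 1.02% of all rows in this direction. The difference was 4.58 (SE 0.80, unadjusted p = 0.000213, adjusted p = 0.370). The other 2 were MX1, at 0.78 (SE 0.31), and IFI44L, at -0.83 (SE 0.35), both with an adjusted p of 0.824 and overlapping values. The IFITM genes differed by 0.05, -0.04 and -0.03 for IFITM1, IFITM2 and IFITM3.

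Covariation across splits was measured for genes detected in at least 8 of 10 splits of a set. In the numbered set 21 genes gave 210 pairs with a median Spearman rho of 0.103, beside 0.0667 for all 2623 rows that met the same rule. In the unnumbered set 12 genes gave 66 pairs with a median rho of 0.0364, beside 0.0182 for 2075 rows. Of 552 coefficients over both sets none passed adjustment in a permutation test, and 22 numbered and 6 unnumbered pairs had an unadjusted p under 0.05 in rho. The share of pairs of all rows at that unadjusted p is not given here, so these counts are no result about the members. The pairs share libraries, so they are not independent.

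The 2 pairs with the smallest p in each set were all within the IFITM family. In the numbered set they were IFITM2 with IFITM3 and IFITM1 with IFITM3, but the levels lay in separate clusters. IFITM1 was at 1605 to 1766 FPKM in splits 1 and 7 to 10 and at 2322 to 2511 FPKM in splits 2 to 6. IFITM2 was at 3408 to 4389 FPKM and IFITM3 at 202 to 219 FPKM in splits 1 and 7 to 10, with 5487 to 6690 FPKM and 287 to 307 FPKM in splits 2 to 6. With fewer than 6 splits on each side no coefficient was computed within a cluster, and no pooled one is given for these pairs. In the unnumbered set IFITM1 and IFITM3 had r = 0.961 and rho = 0.818 over 10 splits (permutation p = 0.00084 and 0.00589, adjusted p = 0.171 and 0.265). Without the 2 splits farthest from the median of IFITM1 r was 0.960, and within the 8 splits 246 to 253 r was 0.743. IFITM1 and IFITM2 had r = 0.818 and rho = 0.733 (permutation p = 0.00093 and 0.0202, adjusted p = 0.171 and 0.330), with r = 0.611 without the 2 farthest splits and 0.719 in splits 246 to 253. Neither passed adjustment, and near-identical sequence is shared by all these pairs.

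**Figure D5:**
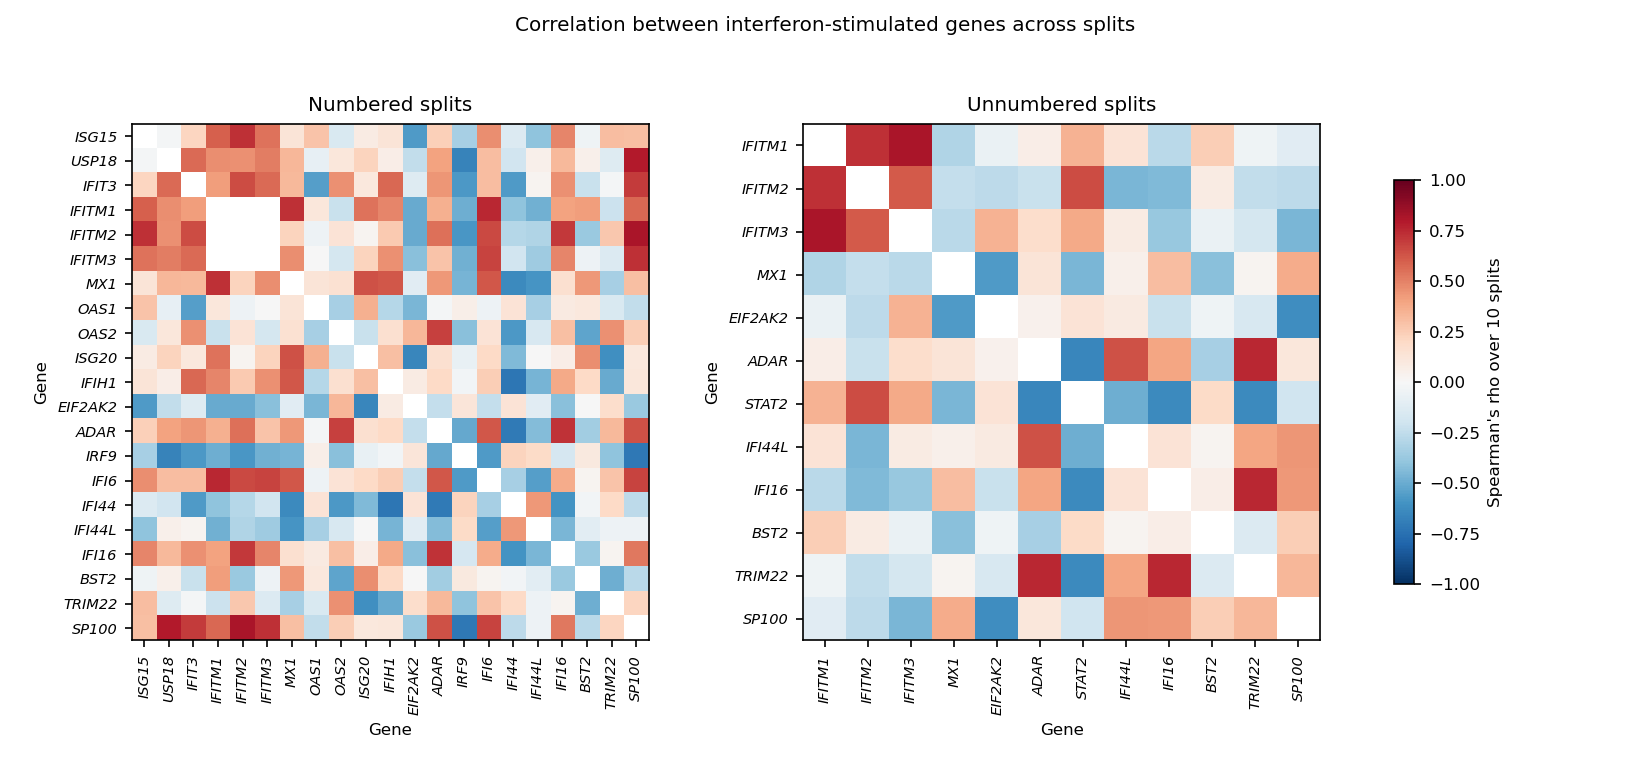
Spearman's rho between pairs of interferon-stimulated genes across the 10 numbered splits (left, 21 genes) and the 10 unnumbered splits (right, 12 genes), from blue for -1 to red for 1. Pairs within the IFITM family are left white in the numbered splits, where their levels lay in separate clusters, and the other cells are mixed in colour around medians near 0. In the unnumbered splits the highest value is 0.818, between IFITM1 and IFITM3.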

How the data were processed

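Transcript levels of 20 GM12878 pool splits were taken from the authors' gene tables. The submitters' processing notes name Cufflinks 2.0.2 and TopHat 1.4.1 as the tools. The values are FPKM, as deposited, with confidence bounds and a status. The labels of these splits name no genome build or annotation, while those of the 42 samples not analysed name hg19 and GENCODE 13. Rows with status FAIL in any library (128) or LOWDATA in all (5797) were left out, and of 49115 rows 10506 had a mean of 1 FPKM or more and were tested.

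All later values were computed with limma 3.58.1 in R 4.3.3 and with Python 3.11.15 (pandas 2.3.3, scipy 1.17.1, numpy 2.4.6). limma used a trended variance on log2(FPKM + 1), Benjamini-Hochberg adjustment over all rows tested and a threshold of 0.05. Pairs used 2-sided permutation tests (100000 resamples) of Pearson's r and Spearman's rho, adjusted over all 552 coefficients. The scripts were tested on simulated data. Depth was estimated from the bounds of 10 mitochondrial genes, and no 2 libraries held identical values. FPKM is scaled to mapped fragments and so hides depth, and Cufflinks is known to share out fragments that match several genes.

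The members and lists were chosen with earlier results of these data known. Genes given in full were those past the threshold, the 2 most abundant of each subgroup, and those detected in at least 8 of 10 splits of a set. Pathway genes named were those past the threshold and the 2 most abundant of each list, and pairs were the 2 of smallest p per set. Alternatives varied the pseudocount, filter, scaling, length correction, libraries and test. Other members are given more briefly. One gene of the pathway lists is not reported here. PTPN1, SAMD9L, TDRD7, CSF1R, IL10RB, TYK2, the comparison of PARP9 in splits 5 to 8, and the values of HERC5, IFI35, XAF1 and PARP9 were chosen after they were seen.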

Additional observations from a re-analysis of the deposited data

Results flagged for a closer look

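Of 56 groups of 10 values checked, 11 (19.6%) had a lowest or highest split whose gap to its nearest neighbour was large for the range of the set, where chance gives about 1 in 20 for independent normal values. Many of these levels are at 0 and the IFITM values are related, so that rate is no yardstick here. Unnumbered split 233 gave 4 of them, with the highest ISG15 of its set at 1.92 FPKM (next 0.173), the lowest IFITM1 at 63.6 FPKM (next 324), the lowest IFITM3 at 8.39 FPKM (next 38.6) and the highest ratio of IFITM2 to IFITM1 at 8.40 (next 4.06). Its depth was 38.7 M fragments.

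Numbered split 1 was lowest for OAS2 at 0.125 FPKM (next 10.7) and for IFI6 at 4.76 FPKM (next 17.5). Numbered split 7 was lowest for BST2 at 26.4 FPKM (next 109). Unnumbered split 252 was highest for IRF1 at 14.5 FPKM (next 0.0190), and split 250 was highest for IFI44 at 304 FPKM (next 18.9). Split 253 had the fewest members detected, 11 (next 16), and it also had the fewest rows detected of all, 2942. Split 247 had the lowest IFITM3 as a share of IFITM1, 7.45% (next 11.4%), at a depth of 0.128 M fragments (megafragments).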

How the results depend on the processing

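No paired analysis was possible because the unnumbered splits carry no split numbers. The same 7 genes were called under every alternative run, except that IRF1 (3.50) lost its call when splits 5 to 8 had a term of their own (adjusted p = 0.0964) or were left out (0.0908). IFIT3 was gained without split 247 (0.0421), without splits 9, 247 and 253 (0.0133) and without numbered split 9 (0.0195) or unnumbered split 248 (0.0244), and USP18 at a mean of 10 FPKM or more (0.0456) and without numbered split 9 (0.0161) or unnumbered split 232 (0.0242) or 250 (0.0400). The count was 6 to 9 over all alternatives and 7 to 9 with each split left out in turn, with none lower. Of all 10506 rows, 467 were higher without numbered split 9, where 9 members were called. With a term for splits 5 to 8, where 6 members were called, 287 rows were higher. The median difference of the members was 0.697 to 2.24 over the alternatives and 1.34 to 1.81 with a split left out.

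Scaling moved the median of all rows from 0.35 to 0.23 with size factors, 0.24 with TPM and -0.03 with the length trend removed, against 1.32, 1.33 and 1.17 for the members. The rows called higher and lower numbered 413 and 145 in the main setting, 309 and 194 with size factors, 345 and 217 with TPM, 225 and 241 with the length trend removed, and 706 and 247 with the rank-sum test.

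Signs turned for members far from the threshold. EIF2AK2 was -0.058 with the length trend removed, -0.13 without split 247 and -0.17 without splits 9, 247 and 253, and -0.134 to 0.790 with each split left out. ADAR was 0.045 at a pseudocount of 0.1 and 0.146 at 10, and -0.427 to 0.347 with each split left out. STAT2 was 0.29 without splits 9, 247 and 253. IFI35 was 0.106 without split 247 and 0.073 without splits 9, 247 and 253, and -0.865 to 0.106 with each split left out. With each split left out TRIM22 was -0.871 to 0.271 and SP100 -0.037 to 1.08. PARP9 was called (1 member) between splits 5 to 8 and the other 6 with no filter on level, beside 5 of all 24874 rows in that setting. The median rho of the unnumbered set was -0.00916 with genes detected in 5 splits and -0.0917 to 0.05 with a split left out. The cause of these changes was not tested. Of the pathway genes, LGALS9 lost its call without splits 5 to 8, TNFSF13B at a pseudocount of 10, and LY6E in 3 settings. Summing the rows of a symbol was not run, since each symbol had 1 row. Depth limits what can be said of low levels, above all in split 247.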

Other observations

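The spread of the members between splits was set beside that of all rows of the same level. For a mean of 100 to 1000 FPKM in the numbered set the median coefficient of variation was 0.623 over 11 members and 0.612 over 1164 rows, and at 10 to 100 FPKM it was 1.07 over 16 members and 1.48 over 4255 rows. In the unnumbered set it was 0.811 over 5 members and 0.741 over 1249 rows at 100 to 1000 FPKM, and 1.38 over 20 members and 1.73 over 4110 rows at 10 to 100 FPKM. At 1000 FPKM or more it was 0.200 over IFITM1 and IFITM2 in the numbered set, beside 0.234 over 224 rows, and 0.394 for IFITM2 in the unnumbered set, beside 0.266 over 202 rows. Under 10 FPKM it was 1.77 over 5 members and 2.34 over 4653 rows in the numbered set, and 3.15 over 7 members and 2.63 over 4425 rows in the unnumbered set. The members were thus above all rows at some levels and below them at others.

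Low values were unevenly spread over the splits. In the numbered set split 9 was lowest for 8 of 21 members (38.1%), beside 28.7% of all rows that met the same rule, and split 1 was lowest for 5 (23.8%, beside 10.8%). In the unnumbered set split 253 was lowest for 4 of 12 members (33.3%, beside 19.8%) and split 233 for 3 (25.0%, beside 10.8%). The deposited bounds were set beside the spread between splits. The SD between splits was 3.15 times the median half-width of the bounds for IFITM3 in the numbered set and 28.3 times for IFIH1. In the unnumbered set the widest half-width was above the SD for IFITM3 (103 FPKM, SD 19.73), IFITM2 (716 FPKM, SD 497), MX1 (248 FPKM, SD 132), BST2 (167 FPKM, SD 99.1), IFI16 (134 FPKM, SD 112) and SP100 (193 FPKM, SD 165).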
